A study of Mus musculus with 24 samples.

Results

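The E2F family and its pocket proteins were followed through 10 genes. They were 7 E2F transcription factors (E2f1, E2f2, E2f3, E2f4, E2f5, E2f6 and E2f8) and the 3 pocket proteins that bind some of them (Rb1, Rbl1 and Rbl2). The genes were taken by gene name from the deposited gene tables, with earlier results of these data known, and make up 10 of the 56941 genes listed. All 10 passed the filter on low counts and so were among the 13315 genes tested. The libraries came from C2C12 cells, a mouse myoblast line, carrying ChR2::tdTomato, a light-gated cation channel fused to a red fluorescent protein. Myoblasts were differentiated into muscle sheets on grooved fibrin gels in 24-well plates, in horse serum with IGF-1. Blue light was pulsed for 60 min each day at 1, 4 or 10 Hz. Stimulation began on day 1 in differentiation medium, so it ran while the sheets were forming. Control wells were the same engineered cells, carrying the same channel, and received no stimulation. Each of the 4 conditions had 6 biological replicates, 24 libraries in all, and the total estimated count per library ran from 8052369 to 18159144. The comparisons asked how RNA levels differed with the frequency of daily light stimulation, and those against control all used the same 6 control libraries. Light exposure and contraction came together in this design, so they cannot be told apart. The paper reports spontaneous twitch in all conditions, control included. It also discusses why tissues at 10 Hz resembled control in a separate experiment with shorter daily training, not analysed here. As a possible reason it proposes incomplete relaxation between pulses, with smaller movements and so perhaps less wear on fibres. As an alternative it proposes that tissues at 10 Hz may have tired sooner and not contracted for part of the training. Neither reason was tested here. The model is 1 engineered cell line in plates, and the sources used here do not state whether wells of a condition shared a plate or a passage.

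E2F proteins bind DNA at promoters of genes for DNA replication and cell division, mostly as dimers with a DP partner. E2F1, E2F2 and E2F3 are the activators, whereas E2F4 and E2F5 act mainly as repressors in quiescent and differentiated cells. E2F6 represses without pocket proteins, within a Polycomb complex, and E2F8 is an atypical repressor that needs no DP partner. The pocket proteins RB1, RBL1 (p107) and RBL2 (p130) hold E2Fs inactive until cyclin-dependent kinases phosphorylate them, and RB1 is well known for keeping myotubes out of the cell cycle. In non-dividing cells RBL2, E2F4 and the MuvB proteins form DREAM, a complex that silences cell-cycle genes.

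Promoters of E2F genes can themselves carry E2F sites, so windows at start sites of the members were read for the letters of that motif. RefSeq (assembly GRCm38.p6) gave 9 windows of 250 bases before to 50 bases after a start site for 7 of the members. E2f4, E2f5 and Rb1 were not read. The 1 window of E2f1 sat at a start 466 bases inside the gene as GENCODE draws it, so the bases before its outermost start were not read either. The E2F motif was searched as TTTCCCGC, TTTCGCGC, TTTGCCGC and TTTGGCGC on both strands. It was present in 3 of the 9 windows, against 2.26% of all 32851 windows of the same length. The 3 windows belonged to E2f2 and E2f3, the members that fell most, and to Rbl1, not called against control in the fit reported. E2f2 and E2f3 each had another window without the motif, and the window of E2f6, which also fell, held none. Stretches of the 3 windows with the motif are printed 5′ to 3′ on the strand of the gene, with the motif in capitals. In E2f3 the motif reads along the other strand. The E2f2 motif lay after the start, and a stretch of 26 bases around it follows the bases before the start. In Rbl1 the motif lay before the RefSeq start and inside the first exon as GENCODE draws it. Coordinates are those of the exact match to GRCm39.
E2f2 before the start, chr4:135899335-135899584, plus strand: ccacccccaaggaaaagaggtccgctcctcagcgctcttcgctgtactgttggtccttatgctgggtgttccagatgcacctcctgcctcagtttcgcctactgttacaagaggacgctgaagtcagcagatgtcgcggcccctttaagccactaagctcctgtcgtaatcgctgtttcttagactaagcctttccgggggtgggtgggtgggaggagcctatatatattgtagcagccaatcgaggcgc
E2f2 after the start, chr4:135899609-135899634, plus strand: tttggcggcatatagTTTGGCGCtaa
E2f3 before the start, chr13:30170047-30170296, minus strand: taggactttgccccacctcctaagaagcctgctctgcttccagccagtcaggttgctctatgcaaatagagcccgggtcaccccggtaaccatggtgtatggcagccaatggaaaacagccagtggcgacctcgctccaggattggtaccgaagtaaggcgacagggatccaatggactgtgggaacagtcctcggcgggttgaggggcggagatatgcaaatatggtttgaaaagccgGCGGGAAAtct
Rbl1 before the start, chr2:157046455-157046704, minus strand: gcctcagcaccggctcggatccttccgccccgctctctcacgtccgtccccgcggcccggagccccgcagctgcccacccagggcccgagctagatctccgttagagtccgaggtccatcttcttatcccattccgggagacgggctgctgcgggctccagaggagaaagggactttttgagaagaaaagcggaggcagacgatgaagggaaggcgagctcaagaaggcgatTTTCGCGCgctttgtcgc

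The second motif searched was CHR (TTTGAA, both strands), the element read by MuvB complexes. It occurred in 4 of the 9 member windows, in E2f2, E2f3, E2f8 and Rbl2, against 17.9% of all windows. The E2f2 match lay in another window than the one printed, at a start 8508 bases inside the gene as GENCODE draws it. For scale, windows of the S-phase genes regulated by E2F held the E2F motif in 10 of 29, or 34.5%, and windows of the mitotic genes repressed by DREAM held CHR in 15 of 20, or 75%. With the first T of each E2F motif dropped, 4 of the 9 member windows matched, against 9.57% of all windows. These matches are letters in a window, and no binding was measured.

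The tissues carried a muscle programme. All 8 skeletal muscle markers passed the filter, with summed levels of 8181 to 14156 CPM (counts scaled to library size, by TMM) over the 24 libraries. Markers of adipocytes, endothelial cells, osteoblasts and neurons summed to under 2 CPM in every library. Of the 3 immune markers, Ptprc and Adgre1 did not exceed 0.0998 CPM in any library and Cd68, which other cells also express, reached 72.9 CPM. The 5 markers of undifferentiated myoblasts summed to between 440 and 501 CPM in control, 500 and 588 CPM at 1 Hz, 510 and 613 CPM at 4 Hz and 472 and 511 CPM at 10 Hz. Most of that sum is Sdc4, which reached 504 CPM, and the members of the list moved in opposite directions. Pax7, a marker of muscle stem cells, fell (-1.58 and -1.53 on the log2 scale at 1 and 4 Hz), whereas Myf5 (1.32 and 1.17), Spry1 (0.98 and 1.31) and Cd34 (0.31 and 0.27) rose at both frequencies and Sdc4 rose at 4 Hz (0.22). Among the muscle markers, the myogenic factors Myog (-1.34 and -1.47 on the log2 scale at 1 and 4 Hz) and Myod1 (-1.42 and -1.75) fell with stimulation at both frequencies. The other 6 muscle markers were not called, with log2 values from -0.07 to 0.06 at 1 Hz and from 0.05 to 0.27 at 4 Hz. The part of these marker shifts in the results on the E2F genes was not tested. In bulk libraries, fewer cells of a type and less RNA per cell cannot be told apart.

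Per unit length, the 10 genes spanned a modest range in unstimulated muscle. In TPM, which divide by transcript length, E2f4 was highest in control at 46.7 ± 4.5 (SD, n = 6), followed by E2f6 at 40.8 ± 2.3 and Rb1 at 39.8 ± 3.4. Rbl2 reached 21.2 ± 2.3 TPM and E2f2 15.1 ± 3.9 TPM. The remaining 5 genes lay lower, with E2f5 at 11.5 ± 1.2, E2f3 at 10.97 ± 1.3, E2f1 at 9.34 ± 0.66, E2f8 at 7.11 ± 0.54 and Rbl1 at 5.24 ± 0.45 TPM. Neighbours in this order overlapped in their library ranges except at the steps from Rb1 to Rbl2, from E2f1 to E2f8 and from E2f8 to Rbl1. The repressor E2f4 and the Polycomb-linked E2f6 were therefore the most abundant E2F transcripts. The pocket protein transcripts were led by Rb1, with a median Rb1:Rbl2 ratio of 1.86 and a median Rbl1:Rbl2 ratio of 0.235 in control.

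**Figure D1:**
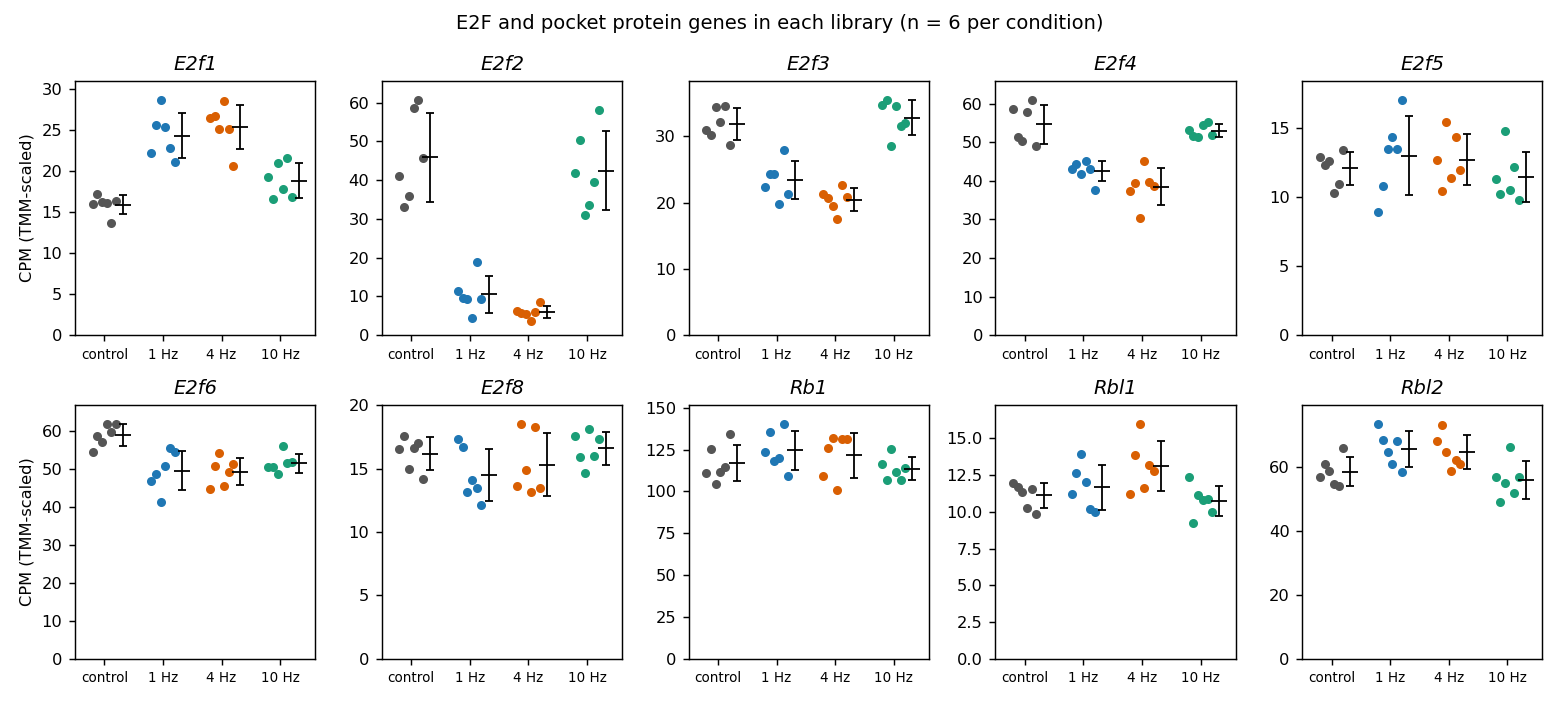
Level of each E2F and pocket protein gene in CPM (TMM-scaled, y axis from 0) in all 24 libraries by condition (x axis). Each point is 1 library and the black mark with bars is the mean ± SD of 6 libraries. E2f2 sits at 4.51 to 18.9 CPM at 1 Hz and 3.58 to 8.59 CPM at 4 Hz, below every control and 10 Hz library, while E2f1 sits above every control library at both frequencies.

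Against control, E2f1 was higher and E2f2, E2f3, E2f4 and E2f6 were lower after stimulation at 1 Hz. At 4 Hz, against the same control libraries, E2f1 was higher and E2f2, E2f3, E2f4 and E2f6 were lower. E2f5, E2f8 and the 3 pocket proteins passed the test at neither frequency. At an adjusted p under 0.05 (edgeR quasi-likelihood test, adjusted over all genes tested), 5 of 10 members were called at 1 Hz, where 37.3% of all genes were called, and 5 of 10 at 4 Hz, where 51.4% were. The share of members called lay near that of all genes, so the count is not a result about the family. By direction, 1 member was higher and 4 were lower at each frequency, against 19.2% of all genes higher and 18.1% lower at 1 Hz, and 27.5% higher and 23.9% lower at 4 Hz. With the added requirement of an absolute log2 fold change over 0.5, 2 members were called at 1 Hz and 4 at 4 Hz, beside 14.9% and 25.1% of all genes. In CPM, libraries of control and stimulated tissue did not overlap for 4 members at 1 Hz and 5 at 4 Hz, beside 14.1% and 27.6% of all genes. Over the members the log2 fold changes had medians of -0.05 and -0.01, beside 0.04 and 0.06 over all genes. Since the genes were taken up with results in view, their p-values describe these libraries and are not independent evidence.

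E2f1, an activator and the E2F best known for linking proliferation to apoptosis, was the member that rose. Its control level ran from 13.6 to 17.2 CPM with a median of 16.2 CPM, and the 10 Hz level from 16.6 to 21.6 CPM with a median of 18.5 CPM. At 1 Hz it ran from 21.1 to 28.7 CPM with a median of 24.1 CPM. At 4 Hz it ran from 20.6 to 28.5 CPM with a median of 25.8 CPM. In CPM, every 1 Hz and 4 Hz library was above every control library. The 10 Hz range overlapped both control and the stimulated tissues. In TPM the separation from control was lost, with 8.79 in 1 Hz replicate 6 and 9.35 in 4 Hz replicate 3. The highest control library held 10.06 TPM. The fold change was 1.52 at 1 Hz (log2 0.61 ± 0.092 SE, adjusted p = 1.64e-05 by edgeR) and 1.59 at 4 Hz (log2 0.67 ± 0.093 SE, adjusted p = 2.26e-06). The gene lies at chr2:154401326-154411812 (GRCm39, minus strand) and overlaps no other annotated gene.

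E2f2, the second activator, showed the largest change of the family and fell at both frequencies. In control it ran from 33.0 to 60.7 CPM with a median of 43.4 CPM. At 1 Hz it ran from 4.51 to 18.9 CPM with a median of 9.47 CPM, and at 4 Hz from 3.58 to 8.59 CPM with a median of 5.87 CPM. The highest 1 Hz library therefore held less E2f2 than the lowest control library. At 10 Hz the range, 31.1 to 58.1 CPM with a median of 40.6 CPM, overlapped that of control. The level was 4.41-fold lower at 1 Hz (log2 -2.14 ± 0.24 SE, adjusted p = 8.63e-07 by edgeR) and 7.66-fold lower at 4 Hz (log2 -2.94 ± 0.26 SE, adjusted p = 1.38e-08). E2f2 was also the most variable member between replicates, with a coefficient of variation of 25.2% in control and 44.8% at 1 Hz. In TPM its place among the 10 genes moved from the fifth in control to the last at 4 Hz, where its 1.57 ± 0.51 TPM lay below the 4.41 TPM of the lowest Rbl1 library. The gene lies at chr4:135899585-135923368 (plus strand) and overlaps no other annotated gene.

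E2f3, the third activator, fell as well but by a smaller factor. It ran from 28.7 to 34.6 CPM in control with a median of 31.6 CPM and from 28.6 to 35.5 CPM at 10 Hz with a median of 33.3 CPM. At 1 Hz it ran from 19.8 to 28.0 CPM with a median of 23.3 CPM, and at 4 Hz from 17.6 to 22.7 CPM with a median of 20.8 CPM. In CPM, control and 10 Hz libraries overlapped each other, and neither overlapped the 1 Hz or the 4 Hz libraries. In TPM the 10 Hz and 1 Hz libraries did overlap, with 8.96 in 10 Hz replicate 3 and 9.58 in 1 Hz replicate 5. The level was 1.37-fold lower at 1 Hz (log2 -0.45 ± 0.083 SE, adjusted p = 0.000164 by edgeR) and 1.56-fold lower at 4 Hz (log2 -0.64 ± 0.085 SE, adjusted p = 1.19e-06). The activator genes thus did not move together, since E2f1 rose while E2f2 and E2f3 fell. Counts per gene do not separate transcripts from the different start sites of E2f3. E2f3 shares its locus at chr13:30090558-30170046 (minus strand) with genes on the opposite strand, and whether the counting used strand is not given in the sources used here.

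Among the repressors, E2f4, the main partner of RBL2 in resting cells, fell, and E2f5, its close relative, was not called. E2f4 ran from 49.1 to 60.98 CPM in control with a median of 54.6 CPM and from 51.3 to 55.2 CPM at 10 Hz with a median of 52.5 CPM. At 1 Hz it ran from 37.6 to 45.0 CPM with a median of 43.1 CPM, and at 4 Hz from 30.5 to 45.2 CPM with a median of 39.1 CPM. The 1 Hz and 4 Hz libraries all lay below the control libraries. The level was 1.29-fold lower at 1 Hz (log2 -0.36 ± 0.077 SE, adjusted p = 0.00066 by edgeR) and 1.42-fold lower at 4 Hz (log2 -0.50 ± 0.077 SE, adjusted p = 9.23e-06). E2f5 had means of 12.1, 13.0, 12.7 and 11.5 CPM in control and at 1, 4 and 10 Hz, and its libraries overlapped in every comparison. The 95% interval of its log2 fold change was -0.15 to 0.39 at 1 Hz and -0.20 to 0.34 at 4 Hz, so a change of the size seen for E2f4 downward lay outside both.

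E2f6, the pocket-independent repressor that recruits Polycomb proteins to germ-line genes, fell slightly at both frequencies. In control it ran from 54.7 to 62.1 CPM with a median of 59.4 CPM. It ran from 41.4 to 55.6 CPM at 1 Hz with a median of 49.8 CPM, from 44.9 to 54.4 CPM at 4 Hz with a median of 50.1 CPM, and from 48.8 to 56.1 CPM at 10 Hz with a median of 51.1 CPM. At 1 Hz 5 of 6 libraries lay below the control range, at 4 Hz all 6 did and at 10 Hz 5 of 6 did. The level was 1.19-fold lower at 1 Hz (log2 -0.25 ± 0.070 SE, adjusted p = 0.00659 by edgeR) and 1.197-fold lower at 4 Hz (log2 -0.26 ± 0.070 SE, adjusted p = 0.00341). E2f8, the atypical repressor, had means of 16.2, 14.5, 15.3 and 16.6 CPM in control and at 1, 4 and 10 Hz. It was not called in any comparison of the fit reported. Its log2 fold change was -0.16 at 1 Hz (95% interval -0.38 to 0.05) and -0.08 at 4 Hz (-0.30 to 0.13). On the scale of log2(TPM + 1), however, E2f8 was called lower at 4 Hz (-0.36, adjusted p = 0.0439 by limma).

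None of the 3 pocket proteins passed the test against control in the fit reported. With upper-quartile factors Rbl1 and Rbl2 were called higher at 4 Hz (adjusted p = 0.0299 and 0.04998 by edgeR). Rb1 had means of 117 ± 10.96, 125 ± 11.7, 122 ± 13.4 and 113 ± 6.88 CPM (SD, n = 6) in control and at 1, 4 and 10 Hz, and the 95% interval of its log2 fold change was -0.07 to 0.25 at 1 Hz and -0.11 to 0.22 at 4 Hz. Rbl2 had means of 58.4 ± 4.4, 65.5 ± 5.5, 64.5 ± 5.3 and 55.8 ± 5.8 CPM, with log2 fold changes of 0.16 at 1 Hz (adjusted p = 0.0949 by edgeR) and 0.14 at 4 Hz (adjusted p = 0.121). Its libraries overlapped between control and each frequency. Rbl1, which is itself a classical E2F target, had means of 11.1 ± 0.85, 11.7 ± 1.5, 13.1 ± 1.7 and 10.7 ± 1.0 CPM. At 4 Hz its log2 fold change of 0.23 (95% interval 0.03 to 0.44) fell just short of the threshold (adjusted p = 0.051 by edgeR). It crossed the threshold without control replicate 1 (adjusted p = 0.0465) or without 4 Hz replicate 1 (adjusted p = 0.031). All 3 pocket protein genes overlap genes on the opposite strand, as do E2f4, E2f5 and E2f8. For E2f4 that gene, Gm64671, is not in the deposited gene tables. Rb1 also overlaps Gm17233, Gm62650 and Mir687 on its own strand.

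**Figure D2:**
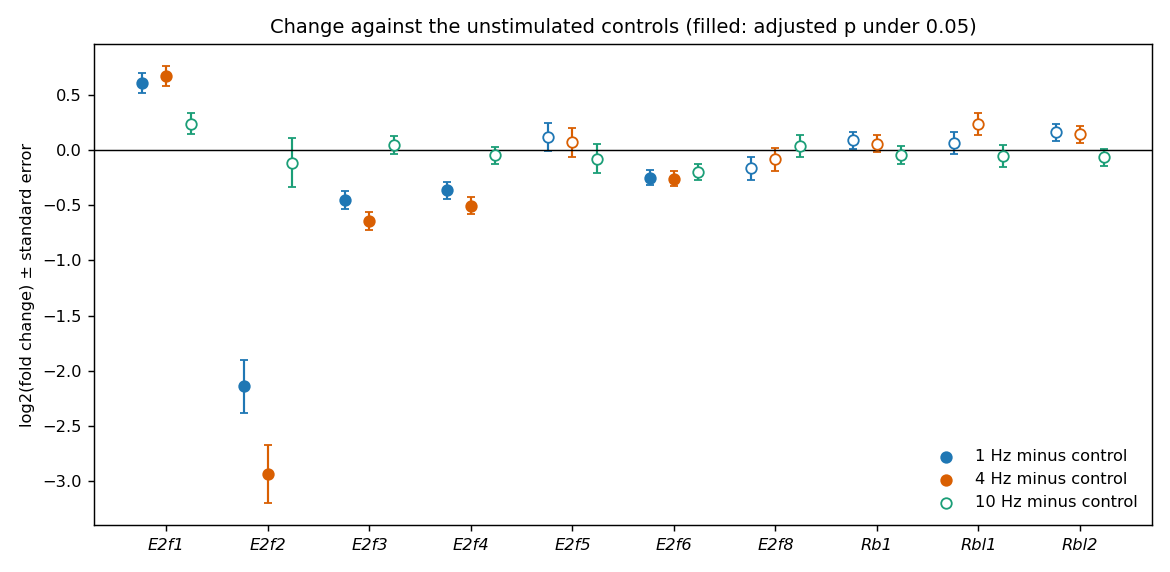
Log2 fold change of each gene against control (y axis) for 1, 4 and 10 Hz, from 1 edgeR fit over 24 libraries. Bars are ± 1 standard error, and filled points passed an adjusted p under 0.05. E2f2 reaches -2.14 at 1 Hz and -2.94 at 4 Hz, E2f1 lies above 0 at both, and no 10 Hz point is filled.

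Daily stimulation at 10 Hz left all 10 genes uncalled. The lowest adjusted p was 0.416, for E2f6 (log2 fold change -0.20), where 0.0376% of all genes were called in that comparison. At an unadjusted p under 0.05 there were 2 members, E2f6 and E2f1 (log2 fold change 0.24, 95% interval 0.05 to 0.44), beside 8.07% of all genes. DESeq2 and limma on the TPM scale also called 0 of the 10. For E2f2 the interval at 10 Hz, -0.58 to 0.35, lay far from its fold changes at the lower frequencies. No member's 10 Hz libraries were all outside the control range, beside 1.64% of all genes.

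The difference between frequencies was tested in the same fit. Between 4 Hz and 1 Hz no member was called, and 0% of all genes were. At an unadjusted p under 0.05 there were 2 members, beside 11.0% of all genes, of which E2f2 was lower at 4 Hz than at 1 Hz (log2 -0.80, 95% interval -1.37 to -0.22, adjusted p = 0.367 by edgeR) and E2f3 was lower too (log2 -0.19). Between 10 Hz and 1 Hz, 5 of 10 members were called, beside 27.9% of all genes. E2f2 was 4.08-fold higher at 10 Hz than at 1 Hz, E2f3 was 1.41-fold higher and E2f4 1.24-fold higher. In CPM each had no overlap between libraries, beside 7.70% of all genes. In TPM the E2f3 libraries of these conditions did overlap. By direction 3 members were higher, beside 14.8% of all genes, and 2 were lower, beside 13.1%. E2f1 was lower (log2 -0.37 ± 0.092 SE), as was Rbl2 (log2 -0.23 ± 0.077 SE, adjusted p = 0.0294 by edgeR). The Rbl2 call was lost when any of 8 single libraries was left out, namely 1 Hz replicates 1, 2 and 3 and 10 Hz replicates 1, 2, 3, 5 and 6 (adjusted p from 0.0501 to 0.0907).

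Between 10 Hz and 4 Hz, 6 of 10 members were called, beside 46.3% of all genes. E2f2 was 7.09-fold, E2f3 1.61-fold and E2f4 1.37-fold higher at 10 Hz, again without overlap between libraries, beside 18.9% of all genes. By direction 3 members were higher, beside 21.9% of all genes, and 3 lower, beside 24.4%. E2f1 (log2 -0.43), Rbl1 (log2 -0.28, adjusted p = 0.0241 by edgeR) and Rbl2 (log2 -0.21, adjusted p = 0.0298) were lower at 10 Hz. The Rbl1 call was lost without 4 Hz replicate 3, 10 Hz replicate 2 or 10 Hz replicate 6 (adjusted p from 0.0738 to 0.103). The Rbl2 call was lost without 4 Hz replicate 1, 2 or 3 or 10 Hz replicate 1, 2, 3, 5 or 6 (adjusted p from 0.0626 to 0.137). On the TPM scale E2f1 did not pass the test between 10 Hz and 1 Hz (adjusted p = 0.337 by limma) or between 10 Hz and 4 Hz (adjusted p = 0.45). Nor did Rbl2 against 1 Hz (log2 -0.019, adjusted p = 0.939) or Rbl1 against 4 Hz (-0.046, adjusted p = 0.775), and Rbl2 against 4 Hz changed sign (0.13, adjusted p = 0.432), so those calls depended on the scale. On the TPM scale, E2f6 (0.37, adjusted p = 0.00612 by limma) and E2f8 (0.36, adjusted p = 0.0445 by limma) were called higher at 10 Hz than at 4 Hz. The Rbl2 call against 4 Hz was also lost with the size factors of DESeq2 (adjusted p = 0.0537 by edgeR), and all 3 pocket protein calls were lost without the filter on low counts (adjusted p from 0.128 to 0.168) and in fits of the 2 groups alone (0.0567 to 0.0815).

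The use of TPM in place of scaled counts moved the changes of all genes. Other size factors on the counts moved them less. The size factors of DESeq2 put the middle gene at 0.03 at 1 Hz and 0.03 at 4 Hz, and upper-quartile factors at 0.06 and 0.09. TPM also divide by transcript length, and the part of that step in the shift was not tested. On log2(TPM + 1) the middle gene shifted by -0.14 at 1 Hz and by -0.21 at 4 Hz, against 0.04 and 0.06 after TMM scaling. Over all genes, the 2554 higher and 2408 lower calls at 1 Hz became 488 higher and 2945 lower on the TPM scale, and the 3664 higher and 3178 lower at 4 Hz became 795 and 4820. The 5 members called against control kept their directions and their calls on that scale at both frequencies. E2f1 was higher by 0.36 at 1 Hz (adjusted p = 0.0217 by limma) and 0.31 at 4 Hz (adjusted p = 0.0288). Relative to the all-gene median of that scale the E2f1 differences were 0.51 and 0.52, and those of E2f2 were -1.89 and -2.43. E2f5, Rb1, Rbl1 and Rbl2, none of them called against control in the fit reported, changed sign between the scales at 1 and 4 Hz.

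The make-up of the family within a library does not depend on how libraries are scaled to each other. Sums compared between libraries do depend on that scaling. The 7 E2F genes had median sums of 139, 103, 87.5 and 137 TPM in control and at 1, 4 and 10 Hz. E2f2 made up a median of 10.2% of that sum in control (8.08 to 13.2%) and 9.79% at 10 Hz (7.86 to 14.0%), against 2.76% at 1 Hz (1.28 to 5.11%) and 1.73% at 4 Hz (1.06 to 2.66%). E2f1 moved the other way, from 6.77% in control (5.27 to 7.53%) and 8.05% at 10 Hz (7.24 to 9.42%) to 12.4% at 1 Hz (11.01 to 15.2%) and 14.0% at 4 Hz (11.4 to 14.9%). For both genes, control and 10 Hz libraries overlapped each other and neither overlapped the 1 Hz or 4 Hz libraries. In TPM, E2f2 exceeded E2f1 in 6 of 6 control libraries and in 5 of 6 libraries at 10 Hz, whereas E2f1 exceeded E2f2 in all 12 libraries at 1 and 4 Hz. E2f4 kept its share, with medians of 32.7, 32.7, 30.3 and 33.6% in control and at 1, 4 and 10 Hz. The 3 pocket protein genes summed to medians of 66.2, 65.9, 55.5 and 64.0 TPM, with overlapping libraries in all conditions. In CPM, however, the mean of each of the 3 was higher at 1 and 4 Hz than in control.

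**Figure D3:**
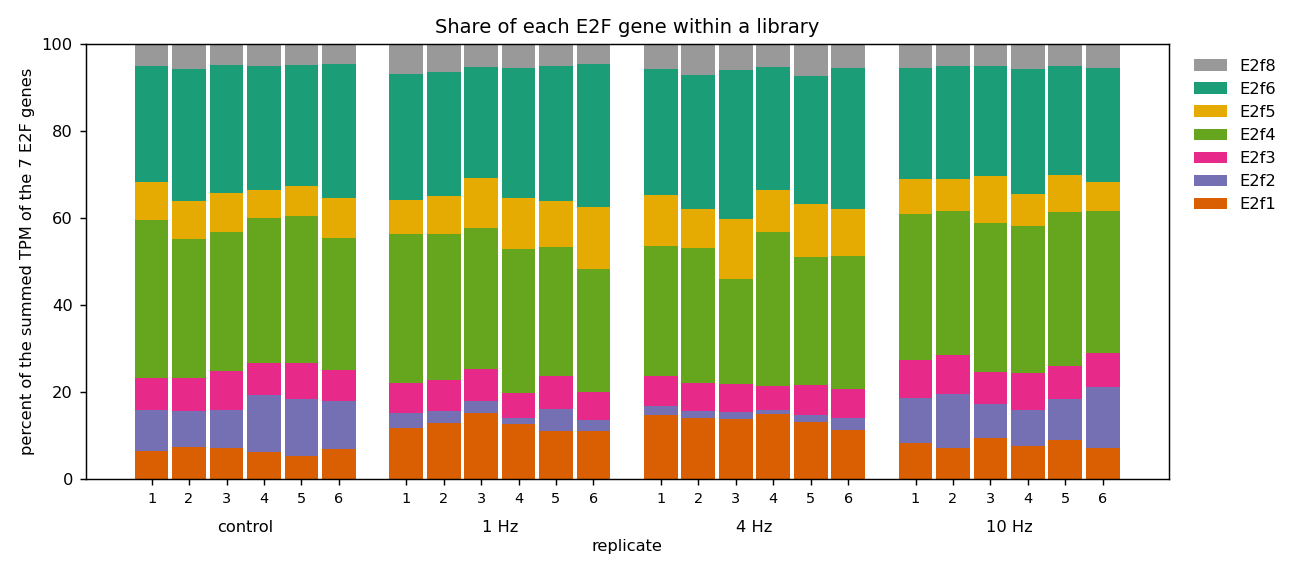
Share of each E2F gene in the summed TPM of the 7 E2F genes (y axis, percent) in every library, grouped by condition (x axis, replicate number). Each bar is 1 library and each colour 1 gene. The E2f2 band narrows from a median of 10.2% in control to 2.76% at 1 Hz and 1.73% at 4 Hz and is 9.79% at 10 Hz, and the E2f1 band widens at 1 and 4 Hz.

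Across the 24 libraries, the log2 CPM of E2f2 and E2f3 followed each other (Pearson's r = 0.95), and E2f1 and E2f2 ran in opposite directions (r = -0.89). Those values are dominated by the conditions. After each condition's mean was removed, r was 0.66 for E2f2 with E2f3 and -0.58 for E2f1 with E2f2. Within 1 Hz, replicate 5 was the highest for both E2f2 and E2f3, and replicate 4 the lowest for both. These are descriptions over libraries that share conditions and scaling, and no p is given. Genes whose levels were among the most like E2f1 over the 24 libraries were Pip4p1 (r = 0.94) and Slc35a2. Those most like E2f2, named after its values were seen, were Nop2 (r = 0.98), Knop1 and Morc2a. For E2f8 they were C2cd3 (r = 0.77), Cx3cl1 and Dot1l, for Rb1 they were Ell2 (r = 0.84), Kdm7a and Sirt1, and for Rbl2 they were Rbm33 (r = 0.91), Cog5 and Rbm20.

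The genes around the family were read from 9 lists of 105 genes, 95 of them tested. Against control, 11 were higher and 13 lower at 1 Hz, 16 were higher and 33 lower at 4 Hz, and 0 were called at 10 Hz. The share called was 25.3% at 1 Hz and 51.6% at 4 Hz, beside 37.3% and 51.4% of all genes, so it lay below or near that of all genes. By direction 16.8% were higher and 34.7% lower at 4 Hz, beside 27.5% and 23.9% of all genes. Left out of the fit, 4 Hz replicate 4 alone took the number higher at 4 Hz from 16 to 9. On the TPM scale the 2 CDK inhibitors Cdkn1b and Cdkn2d were the only ones called higher at either frequency, so the other calls of higher levels below were lost there, with E2f7 under the level tested. The DP partner Tfdp1, which most E2Fs need to bind DNA, fell from 63.2 ± 4.6 CPM in control to 41.9 ± 4.5 CPM after stimulation at 1 Hz and to 37.5 ± 4.1 CPM after 4 Hz (SD, n = 6), with log2 fold changes of -0.59 and -0.75. E2f7, the atypical relative of E2f8, was scarce and rose from 1.06 ± 0.37 CPM to 2.88 ± 0.95 CPM after stimulation at 1 Hz and to 2.15 ± 0.61 CPM after 4 Hz. The E2F6 partners of the PRC1.6 complex, 9 genes, had 1 higher and 2 lower at 1 Hz and 1 higher and 5 lower at 4 Hz. That is 33.3% and 66.7% called, beside 37.3% and 51.4% of all genes. Pcgf6, its defining Polycomb subunit, fell (log2 -0.62 and -0.87), as did L3mbtl2 (-0.60 and -0.70). Ring1, a ubiquitin ligase subunit, was higher at both frequencies (0.26 and 0.17), but at 4 Hz it lost the call without any of 9 single libraries, control replicates 2, 4, 5 and 6 and 4 Hz replicates 2 to 6 (adjusted p from 0.0603 to 0.105 by edgeR), and its sign on the TPM scale.

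Regulators that set the phosphorylation of pocket proteins were called in both directions. Of 9 cyclins and kinases, 0 were higher and 3 lower at 1 Hz, and 2 were higher and 4 lower at 4 Hz, which is 33.3% and 66.7% called beside 37.3% and 51.4% of all genes. Ccnd1, the D-type cyclin of proliferating cells, fell from 121 ± 14.7 CPM to 80.5 ± 13.3 CPM after stimulation at 1 Hz and to 82.1 ± 4.3 CPM after 4 Hz, and its partner kinase Cdk6 fell by 0.53 and 0.72 on the log2 scale. At 1 Hz the Cdk6 call was lost on the TPM scale (adjusted p = 0.059 by limma) and in the fit of the 2 groups alone (adjusted p = 0.0557 by edgeR). At 4 Hz the cyclins Ccne1 and Ccnd3 rose (0.37 and 0.24). On the TPM scale Ccne1 was at 0.034 (adjusted p = 0.833 by limma) and Ccnd3 changed sign, and Ccnd3 also lost its call without control replicate 3 or 4 Hz replicate 4 (adjusted p of 0.0599 and 0.0748 by edgeR). Of the 5 CDK inhibitors tested, 2 were higher at 1 Hz and 3 at 4 Hz, and 0 were lower. That is 40% and 60% called, beside 37.3% and 51.4% of all genes. Cdkn1b (p27) rose from 62.8 ± 7.6 CPM to 113 ± 21.0 CPM after stimulation at 1 Hz and to 120 ± 13.7 CPM after 4 Hz, and Cdkn2d (p19) from 20.2 ± 4.1 CPM to 37.3 ± 7.9 and 44.6 ± 7.3 CPM. Control and stimulated libraries did not overlap for either inhibitor, beside 14.1% of all genes at 1 Hz and 27.6% at 4 Hz. These 2 were named for the smallest p among the called genes of their list. The inhibitors had a list median of 0.24 at 1 Hz and 0.35 at 4 Hz. Of 12 co-repressors that pocket proteins recruit, 1 was higher and 3 lower at 1 Hz, and 2 were higher and 6 lower at 4 Hz, which is 33.3% and 66.7% called beside 37.3% and 51.4% of all genes. The higher ones did not hold in every fit. Smarca2, a chromatin remodelling ATPase, lost its 1 Hz call without control replicate 4 or 1 Hz replicate 1 (adjusted p of 0.0672 and 0.0575 by edgeR). Kmt5c, a histone methyltransferase, was called at 4 Hz alone and lost that call without control replicate 3, 4 or 5 or 4 Hz replicate 1, 3 or 4 (adjusted p from 0.0548 to 0.141) and without the filter on low counts (adjusted p = 0.059). The histone deacetylases Hdac1 (log2 -0.38 and -0.53) and Hdac2 (-0.22 and -0.35) were among those that fell.

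Genes that E2F and DREAM control did not shift as 1 block. Of 27 S-phase genes tested, 3 were higher and 3 lower at 1 Hz and 5 were higher and 7 lower at 4 Hz, which is 22.2% and 44.4% called beside 37.3% and 51.4% of all genes. The number higher at 4 Hz was 2 without 4 Hz replicate 4 or 5 and 3 without control replicate 5 or 6 or 4 Hz replicate 3. The list medians were -0.09 and -0.13 beside all-gene medians of 0.04 and 0.06. That at 1 Hz lay between -0.021 and 0.014 without control replicate 2 or 3 or 1 Hz replicate 1 or 3 and at -0.030 and -0.046 without control replicate 5 and 1 Hz replicate 5, and a filter of 50 counts in 6 libraries put both medians above 0 (0.023 and 0.010). Fen1, the flap nuclease of lagging-strand synthesis, fell (log2 -0.32 and -0.51), as did the helicase subunit Mcm7 (-0.27 and -0.28). Rrm2, a ribonucleotide reductase subunit, was higher by 0.22 and 0.19, but it changed sign at 4 Hz on the TPM scale and lost that call without 4 Hz replicate 5 (adjusted p = 0.0507 by edgeR). The ligase Lig1 was higher by 0.40 and 0.37 and lost its 4 Hz call without 4 Hz replicate 4 (adjusted p = 0.0666), and both its calls on the TPM scale (adjusted p of 0.477 and 0.858 by limma). Of 22 mitotic genes, 1 was higher and 1 lower at 1 Hz, and 1 was higher and 7 lower at 4 Hz, which is 9.09% and 36.4% called beside 37.3% and 51.4% of all genes. The list median at 4 Hz was -0.55, or -0.33 without control replicate 2. With the filter of 50 counts it was -0.29, and 3 were lower. Cdk1, the mitotic kinase, rose from 8.88 ± 1.8 CPM to 13.7 ± 1.4 CPM after stimulation at 1 Hz and to 12.8 ± 1.6 CPM after 4 Hz, but was not called on the TPM scale (0.30, adjusted p = 0.112, and 0.21, adjusted p = 0.232, by limma). Cdc20, an activator of the anaphase-promoting complex, fell (log2 -0.55 and -0.82), and the kinetochore motor Cenpe fell at 4 Hz (-1.32). Cenpe was not called at 1 Hz (-0.53) except without 1 Hz replicate 3 (adjusted p = 0.0156 by edgeR).

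The 7 MuvB, Myb and Foxm1 genes tested had 2 higher and 0 lower at 1 Hz and 1 higher and 3 lower at 4 Hz. That is 28.6% and 57.1% called, beside 37.3% and 51.4% of all genes. Lin52, the subunit through which MuvB docks to RBL2, was higher at both (log2 0.54 and 0.50), but not on the TPM scale (0.31, adjusted p = 0.0798, and 0.21, adjusted p = 0.196, by limma). Lin9, a subunit of the MuvB core, and Foxm1, which joins MuvB when mitotic genes are activated, fell at 4 Hz (-0.89 and -0.78), and Lin9 was called at 1 Hz only without 1 Hz replicate 5 (adjusted p = 0.025 by edgeR). Of the 7 germ-line genes silenced by E2F6, 1 passed the filter, and it was not called at any frequency. At 10 Hz the list medians lay between -0.01 and 0.12 for the 8 lists with more than 1 gene tested.

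**Figure D4:**
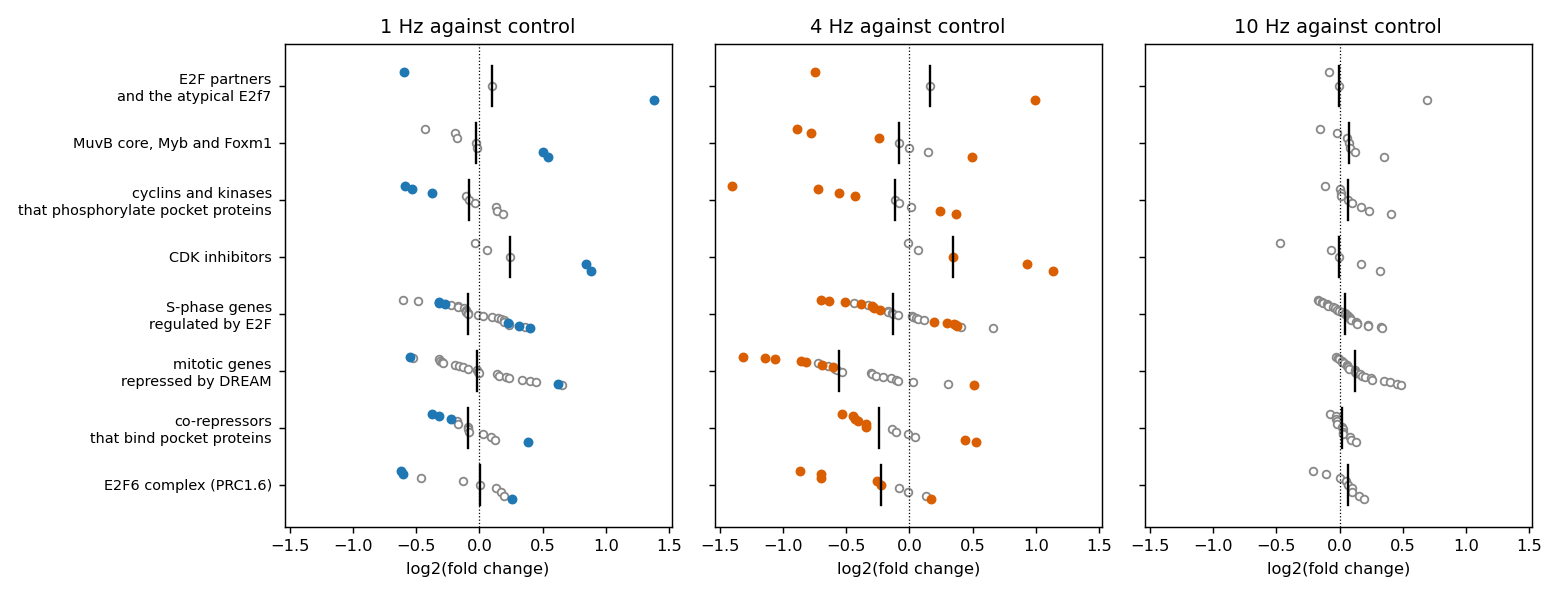
Log2 fold change against control (x axis) of the tested genes of 8 lists around the E2F family (rows), for 1, 4 and 10 Hz. Each point is 1 gene, filled where its adjusted p was under 0.05, and the black line is the list median. At 4 Hz the median of the CDK inhibitors is 0.35 and that of the mitotic genes is -0.55, and no point is filled at 10 Hz.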

How the data were processed

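Per the labels and the study's methods, RNA of the 60 min daily experiment was made into poly(A)-selected directional libraries. Some low-input samples had ribosomal RNA depleted in its place, and the labels do not name them. The authors ran nf-core/rnaseq with Salmon on GRCm39 (Ensembl) and deposited estimated counts and TPM per gene, and 19.0% of the estimated counts above 0 were not whole. The shorter 30 min experiment was not analysed here.

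Estimated counts were rounded, filtered (filterByExpr, minimum count 10, total 15) and fitted in 1 edgeR (4.0.16) quasi-likelihood model with TMM scaling over 24 libraries, run in R 4.3.3. Library totals of 8052369 to 18159144 set the precision, and the biological coefficient of variation was 14.8%. Benjamini-Hochberg adjustment covered all genes tested. CPM use TMM library sizes, and 95% intervals use 20 degrees of freedom. Limma (3.58.1) on log2(TPM + 1) or log2(TPM + 0.1) kept genes of at least 1 TPM in 6 libraries. DESeq2 (1.42.0) was an alternative. The scripts were tested on simulated data.

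The members and lists were chosen with earlier results of these data known. Named were the members, per list and direction the 2 called genes with the smallest p, and the 3 genes most correlated with E2f1, E2f8, Rb1 and Rbl2, of which 1 is not reported here. Replicate numbers did not pair the samples, as the closing section describes. Other alternatives were other size factors, filters, 2 groups alone, the study's fold threshold, a replicate block and single libraries left out.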

Additional observations from a re-analysis of the deposited data

Results flagged for a closer look

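In control replicate 5, E2f1 was at 13.6 CPM, apart from the other 5 control libraries, which lay between 15.9 and 17.2 CPM. It was picked out because its gap to the nearest control library took up most of the range of the group (Dixon's test). In all 40 groups of 6 libraries, 10 genes in 4 conditions, were tested in this way and 1 was picked out, where chance alone picks out about 1 in 20.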

How the results depend on the processing

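The 5 members called at 1 Hz and at 4 Hz kept direction and call under all 9 alternative fits and with any single library left out. Library totals and 6 libraries per condition limit what can be seen for the uncalled members, as their intervals show. On limma's TPM scale, which starts from other values and a lower all-gene median, the sign changed for uncalled genes and for some called ones, namely Ccnd3, Ring1 and Rrm2 at 4 Hz and Rbl2 between 10 Hz and 4 Hz. With log2(TPM + 1), and with log2(TPM + 0.1) after each "or", the 1 Hz values against control were -0.12 or -0.13 for E2f5, -0.11 or -0.11 for Rb1, -0.020 or -0.027 for Rbl1, -0.073 or -0.077 for Rbl2, -0.091 or -0.091 for Ccnd3, -0.023 or -0.026 for Ccne1 and -0.091 or -0.11 for Kmt5c. At 4 Hz they were -0.24 or -0.26 for E2f5, -0.23 or -0.23 for Rb1, -0.028 or -0.033 for Rbl1, -0.22 or -0.24 for Rbl2, -0.094 or -0.094 for Ccnd3, -0.16 or -0.17 for Ring1 and -0.14 or -0.14 for Rrm2. For 4 Hz minus 1 Hz they were -0.048 or -0.051 for E2f1, -0.039 or -0.045 for E2f8 and -0.0075 or -0.0063 for Rbl1. For 10 Hz minus 1 Hz they were 0.021 or 0.023 for E2f5 and 0.050 or 0.052 for Rb1, and for 10 Hz minus 4 Hz 0.14 or 0.16 for E2f5, 0.17 or 0.17 for Rb1 and 0.13 or 0.14 for Rbl2. With both pseudocounts, pathway genes called higher numbered 2 at 1 Hz and 2 at 4 Hz, members lower at 10 Hz numbered 0 against 1 Hz and 0 against 4 Hz, and members higher at 10 Hz than at 4 Hz numbered 5. The added ones were E2f6 and E2f8. Upper-quartile factors gave 3 members higher at 4 Hz, namely E2f1, Rbl1 and Rbl2. Those factors also gave a Mybl1 change of 0.030 at 4 Hz and an E2f6 difference of 0.0039 between 4 Hz and 1 Hz. Without the filter on low counts, 8 pathway genes were higher at 4 Hz, and members lower at 10 Hz numbered 1 against 1 Hz and 1 against 4 Hz. Fits of the 2 groups alone gave 1 and 1 for those last counts. The strict filter gave 2 members higher at 4 Hz, the added one being Rbl1 (adjusted p = 0.048 by edgeR). With the study's fold threshold, 1 member was lower at 1 Hz. The cause was not tested for the changes from the filters, the 2-group fits and the upper-quartile factors. Against control at 10 Hz, over all genes, 5 were called in the fit reported, 16 higher and 42 lower from the 2 groups alone, 21 higher and 38 lower by DESeq2, and 0 by limma. Between 4 Hz and 1 Hz DESeq2 called 6 higher and 15 lower where edgeR called 0.

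Estimated counts, which keep transcript length, in place of TPM moved the shares within the family. The E2f2 medians became 18.9, 5.41, 3.37 and 17.8% in control and at 1, 4 and 10 Hz, those of E2f4 23.03, 24.5, 22.96 and 23.7%, and that of E2f1 at 4 Hz 15.3%. The Rbl1:Rbl2 ratio became 0.179, 0.204 and 0.196 at 1, 4 and 10 Hz, and the Rb1:Rbl2 ratio 2.04 in control and 1.92 at 1 Hz.

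With single libraries left out, the number of pathway genes higher at 4 Hz ran from 9 to 16, members higher at 4 Hz from 1 to 2, and members lower at 10 Hz from 1 to 2 against 1 Hz and from 1 to 3 against 4 Hz. Sign changes occurred in uncalled values near 0. Against control these ran from -0.0022 to 0.20 for E2f5 at 1 Hz, -0.020 to 0.12 for E2f5 at 4 Hz, -0.0037 to 0.10 for Rbl1 at 1 Hz and -0.18 to 0.071 for Mybl1 at 4 Hz. Between 4 Hz and 1 Hz they ran from -0.13 to 0.044 for E2f5, -0.062 to 0.026 for E2f6, -0.071 to 0.013 for Rb1 and -0.059 to 0.015 for Rbl2.

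The replicate numbers did not pair the samples. Over 36 pairs of same-numbered groups, the correlation of deviations from the group means ran from -0.33 to 0.24 with a median of -0.02, and 3 pairs exceeded 0.1. A library correlated best with its own number in 7 of 72 comparisons. With the replicate number as a block, 2 members were higher at 4 Hz in place of 1, the added one being Rbl1 (adjusted p = 0.046 by edgeR).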
